A study of Mus musculus with 172 samples.

Results

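The Cyp4a genes encode cytochromes P450 that put a hydroxyl group on the last (omega) carbon of a fatty acid. Of the 14107 genes listed in liver, 6 are Cyp4a genes, and they are described here: *Cyp4a10*, *Cyp4a12a*, *Cyp4a12b*, *Cyp4a14*, *Cyp4a31* and *Cyp4a32*. They were chosen by name, and each is listed in both liver conditions. None of the 6 is listed among the 14896 genes of cortex, the other tissue sequenced.

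Liver RNA came from young adult male mice of 33 BXD/RwwJ lines, which are inbred mosaics of the C57BL/6J (B6) and DBA/2J (D2) genomes, from the parental strains (2 pools each) and from both reciprocal F1 hybrids (1 pool each, B6D2F1 and D2B6F1). Control mice (Ctr) were undisturbed, and sleep deprived mice (SD) were kept awake for 6 h from light onset. All were killed at the same hour, ZT6. The RNA of the mice of a line and condition was pooled into 1 library, so each group holds 39 pools, and the spread between mice of a line within a condition was not measured. By the paper, BXD79, BXD85 and BXD101 had fewer animals than the other lines, so their libraries hold the RNA of fewer mice. By their labels BXD48a, BXD65a and BXD73b carry the numbers of BXD48, BXD65 and BXD73, which are also among the 33 lines. The 33 lines may thus not all be independent, and the tests treat each as a line of its own. The Ctr and SD pools of a line are different mice of the same genotype. Another 4 lines, BXD/TyJ, were kept apart from the comparisons.

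Omega-hydroxylation is the first step of a side route of fatty acid breakdown. The omega-hydroxy acid is oxidised in turn to a dicarboxylic acid, which peroxisomes shorten. The route gains weight when fatty acids flood the liver, as in fasting. *Cyp4a10* and *Cyp4a14* are classical targets of PPARalpha, the nuclear receptor that senses fatty acids. *Cyp4a12a* and *Cyp4a12b* are higher in male than in female mice and depend on growth hormone and androgens, and *Cyp4a12a* converts arachidonic acid into an eicosanoid that narrows blood vessels. Much less is known of *Cyp4a31* and *Cyp4a32*, which resemble *Cyp4a10*.

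The 6 genes lie side by side on chromosome 4, within 323 kb of the mm9 genome to which the reads were aligned. From the centromeric side they are *Cyp4a12a* (chr4:114971651-115005420, plus strand), *Cyp4a12b* (chr4:115084229-115111639, plus), *Cyp4a14* (chr4:115158805-115168747, minus), *Cyp4a10* (chr4:115190869-115206254, plus), *Cyp4a31* (chr4:115236254-115251618, plus) and *Cyp4a32* (chr4:115273574-115294207, plus). Their coding sequences are 1524 to 1530 bases long and differ to very unequal extents. *Cyp4a12a* and *Cyp4a12b* are 98.5% identical over the coding sequence, and the encoded proteins differ at 11 residues. *Cyp4a10*, *Cyp4a31* and *Cyp4a32* form a trio. *Cyp4a10* is 97.2% identical to *Cyp4a32* and 96.6% to *Cyp4a31*, and *Cyp4a31* and *Cyp4a32* are 96.0% identical to each other. *Cyp4a14* stands alone, at 76.1% to 77.2% identity with every other member.

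The sequences below show how far the members can be told apart by a short read. They are 99 coding bases of exon 12 of each gene (GENCODE M1 on mm9, 5′ to 3′ on the coding strand), which begin within the heme-binding signature of the P450 enzymes. Capitals mark the bases that differ from *Cyp4a10*.
Cyp4a10 (chr4:115205137-115205235): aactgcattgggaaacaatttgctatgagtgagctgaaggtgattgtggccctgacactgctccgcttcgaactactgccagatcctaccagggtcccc
Cyp4a31 (chr4:115250542-115250640): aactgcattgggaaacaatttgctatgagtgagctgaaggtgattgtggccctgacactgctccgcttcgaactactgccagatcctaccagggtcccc
Cyp4a32 (chr4:115294040-115294138): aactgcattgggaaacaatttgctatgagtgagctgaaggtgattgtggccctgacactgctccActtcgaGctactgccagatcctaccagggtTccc
Cyp4a12a (chr4:115004440-115004538): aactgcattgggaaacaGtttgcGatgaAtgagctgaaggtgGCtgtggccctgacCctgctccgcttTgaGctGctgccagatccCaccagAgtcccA
Cyp4a12b (chr4:115110663-115110761): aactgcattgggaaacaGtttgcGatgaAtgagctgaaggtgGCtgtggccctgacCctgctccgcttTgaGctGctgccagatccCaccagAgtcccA
Cyp4a14 (chr4:115159817-115159915): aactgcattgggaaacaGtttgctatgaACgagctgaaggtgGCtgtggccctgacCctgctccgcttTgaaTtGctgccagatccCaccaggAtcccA

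Over this stretch *Cyp4a10* and *Cyp4a31* are identical, and so are *Cyp4a12a* and *Cyp4a12b*. *Cyp4a32* differs from *Cyp4a10* at 3 bases. A read from here could not be placed on 1 gene of either identical pair. Of all windows of 100 coding bases, 41.5% of those of *Cyp4a12a* recur without a mismatch in *Cyp4a12b*. The share found exactly in another member is 17.9% for *Cyp4a10*, 13.8% for *Cyp4a31*, 20.1% for *Cyp4a32* and 0% for *Cyp4a14*. With up to 2 mismatches it is 70.2%, 46.4%, 61.7% and 0%. No such window recurs in a protein-coding transcript outside the 6 genes. How reads that fit 2 members equally were counted is not given in the sources used here, so the split of reads between *Cyp4a12a* and *Cyp4a12b*, and among the trio, is uncertain. The coding sequence of *Cyp4a14* has no such shared window.

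Libraries held 4681101 to 8269401 counted reads. The 9 hepatocyte markers listed summed to 3949 to 6637 CPM (reads scaled to the size of the library) in the 39 Ctr pools and to 4203 to 5754 CPM in the 39 SD pools, and none of 8 kidney markers was listed. Markers of other cells moved with the condition. Of 5 B cell and blood markers listed, 4 were lower after SD, led by *Cd79a* (-1.82 ± 0.20, standard error, on the log2 scale, limma, adjusted p = 5.8e-13), while the summed level of the 5 ran from 209 to 337 CPM in Ctr and from 206 to 379 CPM after SD. Of 7 Kupffer and endothelial markers listed, 3 were higher after SD, and their sum ran from 364 to 745 CPM in Ctr and from 386 to 821 CPM after SD. Whether the mix of cells had a part in the changes of the Cyp4a genes was not tested. In these pools, fewer cells of a type and less RNA per cell cannot be told apart. The SD pool of BXD70 stood apart, with a Pearson correlation of 0.958 to the median profile of its condition, against at least 0.977 for every other pool.

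A property of the counts bears on the abundant members. *Alb*, the albumin gene, had 3477 to 3819 reads in every Ctr pool, whatever the size of the library, and the highest mean density over genes was 1.79 reads per exonic base. The log2 CPM of *Alb* therefore fell as the library grew (Pearson r = -0.99 and Spearman's rho = -0.98 over 39 Ctr pools, r = -0.99 without the 2 most extreme libraries, permutation p = 1e-05, the smallest that 100000 resamples can give). Among the members, *Cyp4a12a* came closest to this, with 0.67 reads per exonic base, 1377 to 1863 reads per Ctr pool and a correlation with library size of r = -0.80 (rho = -0.66, r = -0.68 without 2 libraries, adjusted permutation p = 3.5e-05 over 14 relations). For *Cyp4a12b* r was -0.41 in both conditions (rho = -0.52 in Ctr and -0.51 in SD, adjusted permutation p = 0.024), and it was -0.26 in Ctr without 2 libraries. For *Cyp4a10* it was -0.37 in Ctr (rho = -0.39, adjusted permutation p = 0.037) and -0.0028 in SD. For *Cyp4a14*, *Cyp4a31* and *Cyp4a32* it did not pass the test in either condition.

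**Figure D1:**
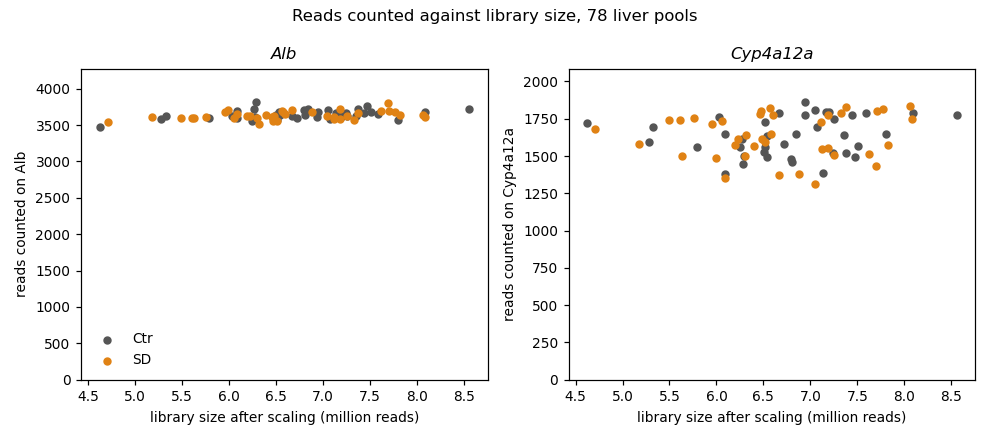
Reads counted on *Alb* (left) and *Cyp4a12a* (right) against the size of the library after the authors' scaling, 1 point per liver pool (39 Ctr in grey, 39 SD in orange). Reads on *Alb* stay between 3477 and 3819 in the Ctr pools over the whole range of library sizes, and reads on *Cyp4a12a* between 1377 and 1863.

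The levels of the 6 genes spanned a wide range. Per kilobase of annotated exon, *Cyp4a12a* was the most abundant in Ctr, with 101 ± 14 CPM per kb (standard deviation over 39 pools). *Cyp4a32* followed with 77.9 ± 29.3, *Cyp4a12b* with 69.9 ± 14.7, *Cyp4a10* with 43.9 ± 30.2, *Cyp4a14* with 28.6 ± 26.4 and *Cyp4a31* with 3.93 ± 3.87 CPM per kb. Apart from the step from *Cyp4a14* to *Cyp4a31*, which had the same direction in 39 of 39 pools, each step in this order was smaller than the standard deviation of the difference over pools. *Cyp4a32* exceeded *Cyp4a12b* in 25 of 39 pools, and *Cyp4a10* exceeded *Cyp4a14* in 36. Only coding exons of *Cyp4a32* are annotated (1536 bases), so its value per kilobase may be too high. For *Cyp4a31* 2507 exonic bases are annotated, against 1530 in the transcript that gave its coding sequence, so its value may be too low. These lengths came from GENCODE M1, whereas the paper counted reads within RefSeq gene boundaries, so they may not match the counted exons of any member. The reads of abundant genes hardly rose with library size, as given above, and the part of this in the ratios between members was not tested.

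The spread over pools separated the members more clearly than the mean. In the 39 Ctr pools *Cyp4a14* ranged from 2.52 (BXD87) over a median of 5.75 to 8.14 (BXD75) log2 CPM. Its 41 reads in the lowest pool stand against 1996 in the highest. *Cyp4a10* ranged from 3.27 (BXD81) over 6.55 to 7.81 (BXD67), and *Cyp4a31* from 0.51 (BXD81) over 2.49 to 5.06 (BXD75). These 3 genes had standard deviations of 1.45, 1.32 and 1.40 log2 units, and ranked 191st, 248th and 208th among the 14107 genes by that measure. The range of *Cyp4a32* was narrower, from 5.32 (BXD49) over 7.02 to 7.71 (BXD55), with a standard deviation of 0.63. *Cyp4a12b* ranged from 6.29 (BXD51) over 7.39 to 7.96 (BXD55) and *Cyp4a12a* from 7.60 (BXD84) over 7.90 to 8.54 (D2B6F1). Their standard deviations were 0.33 and 0.19, and the median over all genes was 0.20.

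**Figure D2:**
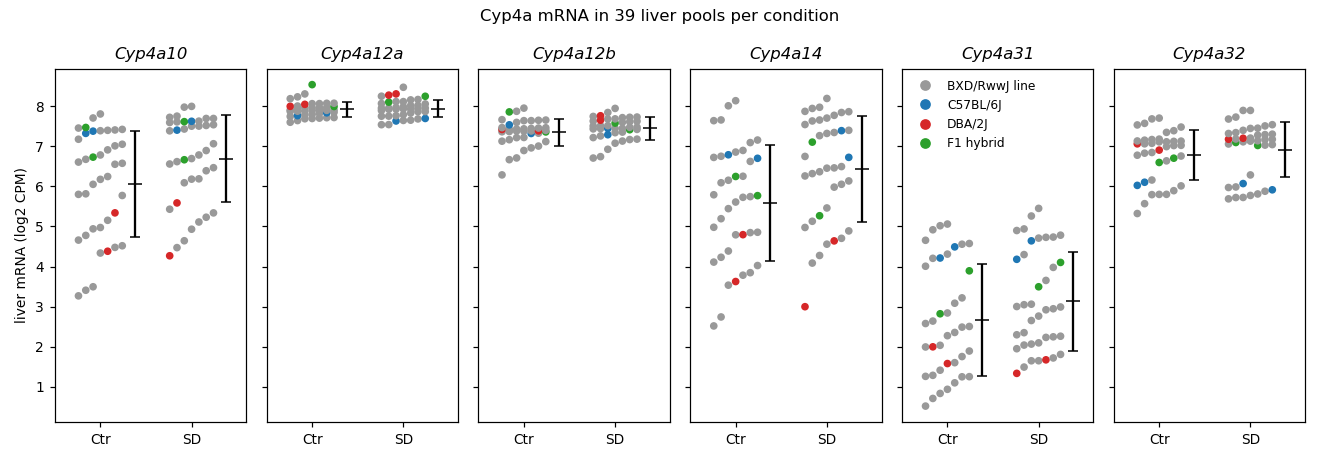
Liver mRNA of the 6 Cyp4a genes (log2 CPM) in each of 39 Ctr and 39 SD pools, with grey points for BXD/RwwJ lines, blue for C57BL/6J, red for DBA/2J and green for F1 hybrids, and bars for the mean and standard deviation over pools. *Cyp4a10*, *Cyp4a14* and *Cyp4a31* spread over more than 4 log2 units in Ctr, *Cyp4a12a* over less than 1, and the pools of *Cyp4a32* fall into a low and a high set.

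Pools of the same line resembled each other. The Ctr and SD pools of a line are different mice, and what both share beyond the mean of their condition was taken as the line term. The authors aimed to pair SD and Ctr mice of a line within each experimental cohort. What the pools of a line share through their genotype and through their cohorts cannot be told apart here. limma's moderated F test over 33 lines called this term in all 6 members at an adjusted p under 0.05, where it was called in 59% of all genes. *Cyp4a32* had the strongest line term, with F = 38.5 (adjusted p = 2.2e-18), rank 67 among all genes, and an intraclass correlation between the pools of a line of 0.94. The intraclass correlation was 0.89 for *Cyp4a12b*, 0.87 for *Cyp4a31*, 0.77 for *Cyp4a10*, 0.76 for *Cyp4a12a* and 0.67 for *Cyp4a14*, against a median of 0.37 over all genes. The weakest call was that of *Cyp4a14* (F = 6.09, adjusted p = 2.0e-06). With library size as a covariate, all 6 calls held (F = 11.2 for *Cyp4a12a*, adjusted p = 1.6e-09).

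The order of the lines in Ctr was close to their order after SD. The Ctr level of *Cyp4a32* correlated with its SD level over 33 lines at r = 0.95 (rho = 0.92), that of *Cyp4a12b* at r = 0.90 (rho = 0.80) and that of *Cyp4a31* at r = 0.88 (rho = 0.77). For *Cyp4a10* r was 0.79 (rho = 0.83), for *Cyp4a12a* 0.77 (rho = 0.72) and for *Cyp4a14* 0.69 (rho = 0.70). Each of these passed a two-sided permutation test (highest adjusted p = 3.0e-05 over 6 relations), and without the 2 lines farthest from the median r was between 0.63 and 0.94.

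The difference between the parental strains ran in opposite directions within the trio of near-identical genes. *Cyp4a10*, *Cyp4a14* and *Cyp4a31* were higher in C57BL/6J, whereas *Cyp4a32* and *Cyp4a12a* were higher in DBA/2J (limma over 4 pools per strain with condition as a covariate, adjusted p under 0.05). The share of all genes called higher in C57BL/6J was 9.47% and the share called higher in DBA/2J 8.42%. The median log2 difference of the 6 members was -1.19 (DBA/2J minus C57BL/6J), against -0.0047 over all genes. Reads of both strains were aligned to the same genome, mm9, and the split of reads within the trio is uncertain, as given above. The part of this in the strain differences of the trio was not tested.

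*Cyp4a31* measured 18.4 and 22.3 CPM in the Ctr pools of C57BL/6J, and 3.84 and 2.84 CPM in those of DBA/2J. After SD the values were 18.0 and 24.8 CPM against 3.03 and 2.37 CPM. The strains did not overlap, and *Cyp4a31* was lower in DBA/2J by 2.74 ± 0.20 (standard error) on the log2 scale (adjusted p = 5.0e-07). *Cyp4a10* measured 160 and 167 CPM in Ctr and 170 and 198 CPM in SD pools of C57BL/6J, and 40.4, 20.7, 48.0 and 19.1 CPM in those of DBA/2J. It was lower in DBA/2J in every pool, with a log2 difference of -2.54 ± 0.23 (adjusted p = 3.5e-06). *Cyp4a14*, the member with no shared 100-base window, had the same direction. Its values were 104, 111, 106 and 168 CPM in C57BL/6J and 27.6, 12.2, 24.8 and 7.83 CPM in DBA/2J, a log2 difference of -2.89 ± 0.31 (adjusted p = 1.7e-05).

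*Cyp4a32* measured 65.0 and 68.7 CPM in Ctr and 60.2 and 67.1 CPM in SD pools of C57BL/6J. In DBA/2J it measured 134 and 120 CPM in Ctr and 147 and 145 CPM in SD pools. All DBA/2J pools lay above all C57BL/6J pools, by 1.06 ± 0.07 on the log2 scale (adjusted p = 2.5e-07). *Cyp4a12a* was higher in DBA/2J by 0.43 ± 0.08 (adjusted p = 0.0014), and by 0.25 with library size as a covariate (adjusted p = 0.0017). *Cyp4a12b* did not pass the test (0.16, 95% interval -0.017 to 0.33, adjusted p = 0.20).

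In the F1 hybrids *Cyp4a31* was at 6.91 (B6D2F1) and 14.7 CPM (D2B6F1) in Ctr, and *Cyp4a32* at 96.8 and 104 CPM. Both genes were thus between the parental strains in the 2 Ctr hybrid pools. *Cyp4a10* was at 106 and 178 CPM, nearer to C57BL/6J. With 1 pool per hybrid and condition, no test was made. BXD/RwwJ lines lay outside the parental range on both sides in Ctr. There, 10 of 33 lines were below the lowest parental pool for *Cyp4a31* and 6 above the highest, and for *Cyp4a32* 7 were below and 17 above. After SD, 0 lines were below and 8 above for *Cyp4a31*, and 6 below and 15 above for *Cyp4a32*, while 0 were below for *Cyp4a10* and *Cyp4a14*.

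Over the 33 BXD/RwwJ lines, *Cyp4a10*, *Cyp4a14* and *Cyp4a31* rose and fell together. In Ctr, *Cyp4a10* correlated with *Cyp4a14* at r = 0.91 (rho = 0.92) and with *Cyp4a31* at r = 0.81 (rho = 0.86), and *Cyp4a14* with *Cyp4a31* at r = 0.80 (rho = 0.85). After SD the values were r = 0.92, 0.82 and 0.76 (rho = 0.89, 0.90 and 0.82). Each of these 6 had an adjusted permutation p of 6.1e-05, over a family of 55 relations between members (Ctr levels, SD levels and changes, all two-sided), and without the 2 lines farthest from the median of the first gene r was at least 0.74. The pair *Cyp4a10* and *Cyp4a14*, which shares no 100-base window, had the highest Pearson's r of the family in each condition, while by rank *Cyp4a10* and *Cyp4a31* were higher after SD. *Cyp4a10* and *Cyp4a31* share such windows, and the part of shared reads in their correlation was not tested.

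**Figure D3:**
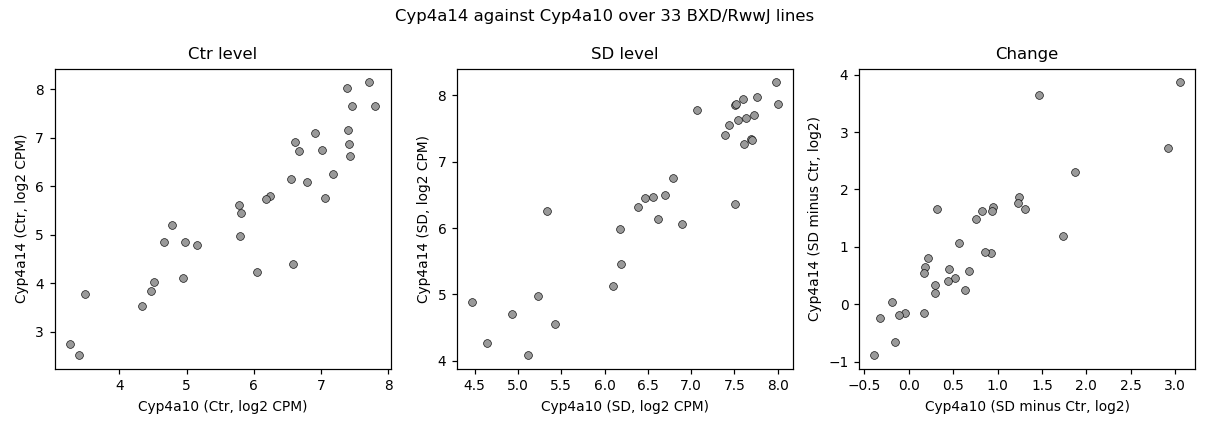
*Cyp4a14* against *Cyp4a10* over 33 BXD/RwwJ lines for the Ctr level, the SD level (both log2 CPM) and the change from Ctr to SD (log2). The lines follow one diagonal in each panel, with r = 0.91, 0.92 and 0.87.

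Correlations of the *Cyp4a12* pair were lower and depended on the scale. *Cyp4a12a* and *Cyp4a12b*, the most alike in sequence, correlated with each other at r = 0.41 in Ctr (rho = 0.51) and r = 0.39 after SD (rho = 0.48), and neither r passed the adjustment (adjusted permutation p = 0.064 and 0.080), whereas both rank correlations did (0.016 and 0.022). With libraries centred on their medians r was 0.47 and 0.46 and passed (adjusted permutation p = 0.023 and 0.024), as it did on linear CPM (0.53 and 0.45, adjusted permutation p = 0.0060 and 0.028). By r, neither gene's level passed the test with *Cyp4a10*, *Cyp4a14* or *Cyp4a31* in either condition, with r between 0.083 and 0.40. The highest of these, *Cyp4a12b* with *Cyp4a10* after SD, passed with centred libraries and on linear CPM (r = 0.42 in both, adjusted permutation p = 0.040 and 0.037). By rank, *Cyp4a12b* passed with *Cyp4a31* after SD (rho = 0.43, adjusted permutation p = 0.041). Both fell with library size as given above, and the part of this in their correlation was not tested.

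*Cyp4a32* had levels in 2 sets, so no correlation over all lines is given. In Ctr, 8 lines lay between 5.32 and 6.16 log2 CPM and the other 25 between 6.64 and 7.71. After SD, 9 lines lay between 5.69 and 6.29 and the other 24 between 7.03 and 7.90. All 8 low lines of Ctr (BXD44, BXD48a, BXD49, BXD61, BXD66, BXD67, BXD75 and BXD83) were also low after SD. The ninth was BXD95, with 6.76 in Ctr and 6.29 after SD. These lines were also those richest in *Cyp4a31*. The 9 lines that were low in *Cyp4a32* after SD held the 9 highest values of *Cyp4a31* (4.30 to 5.45 log2 CPM), and no other line exceeded 3.98 (BXD55). In Ctr the 8 low lines had 4.01 to 5.06 log2 CPM of *Cyp4a31*, BXD95 had 4.66 and no other line more than 3.22 (BXD51). Since the lines were set apart by a measured level, this is a description with no test. The part of the uncertain split of reads between *Cyp4a31* and *Cyp4a32* was not tested either. The C57BL/6J pools lay with the low lines and the DBA/2J pools with the high ones.

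**Figure D4:**
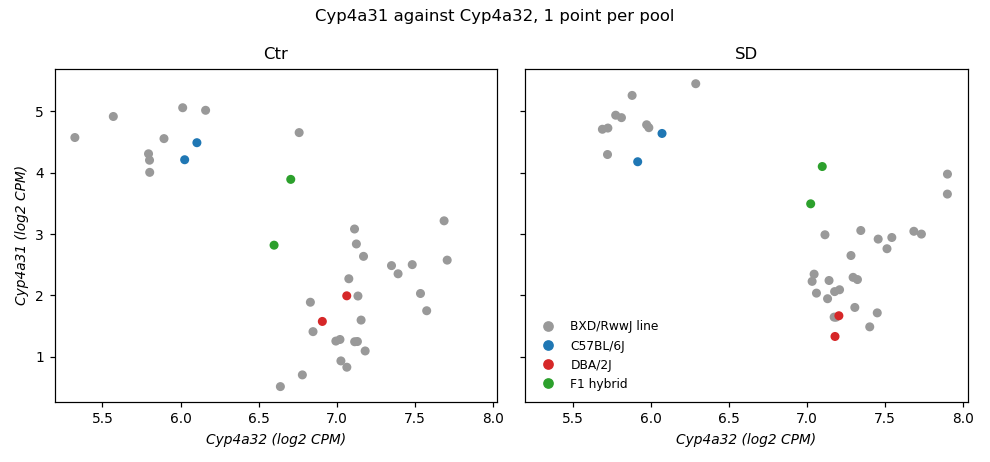
*Cyp4a31* against *Cyp4a32* (both log2 CPM) in Ctr (left) and SD (right), 1 point per pool, coloured as in the plot of levels. Pools low in *Cyp4a32* (at most 6.29 after SD) sit at the top left with the C57BL/6J pools, DBA/2J pools sit at the lower right, and the F1 hybrids in between.

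Within the high set *Cyp4a32* and *Cyp4a31* did not run in opposite directions. Over 24 lines after SD, r was 0.69 (rho = 0.52, adjusted permutation p = 9.0e-04), and 0.47 without the 2 lines farthest from the median. In Ctr r was 0.31 over 25 lines (rho = 0.44, adjusted permutation p = 0.25), and 0.57 without 2 lines. Within the high set *Cyp4a32* also correlated with *Cyp4a12a* (r = 0.58 in each condition, adjusted permutation p = 0.010 in Ctr and 0.013 after SD, rho = 0.56 and 0.55), with r = 0.39 and 0.51 without 2 lines. Its r with *Cyp4a14* was 0.53 in Ctr and 0.50 after SD (adjusted permutation p = 0.024 and 0.045) and 0.46 and 0.53 without 2 lines, but rho was 0.44 and 0.40 and did not pass (adjusted permutation p = 0.086 and 0.12). None of the 10 relations within the low set passed the test, with 8 or 9 lines each. Of all 55 relations, 15 passed by r, every one of them positive.

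Sleep deprivation raised *Cyp4a14* and *Cyp4a10*. Over 39 against 39 pools *Cyp4a14* rose from 5.59 ± 1.45 to 6.43 ± 1.33 log2 CPM (mean ± standard deviation), by 0.84 ± 0.31 (standard error, limma, adjusted p = 0.020), and was higher after SD in 30 of 39 pairs of pools. *Cyp4a10* rose from 6.06 ± 1.32 to 6.69 ± 1.09, by 0.63 ± 0.27 (adjusted p = 0.048), in 31 of 39 pairs. That is 2 of the 6 members, where 44.2% of all genes were called, 21.5% higher after SD and 22.6% lower. The median change of the members was 0.30, against -0.0015 over all genes. The call of *Cyp4a10* was close to the threshold, and it was lost when any 1 of 20 lines was left out (without BXD70, 0.56, adjusted p = 0.081), while that of *Cyp4a14* held without each of the 39 (without BXD70, 0.76, adjusted p = 0.037).

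More members were called within lines. With the line as a replicate block, which compares each SD pool with the Ctr pool of its own line, 5 of the 6 members were called higher after SD, where 26% of all genes were called higher and 27.9% lower in the same fit. *Cyp4a10* (adjusted p = 1.2e-05) and *Cyp4a14* (2.2e-05) were joined by *Cyp4a31* (0.46 ± 0.10 by limma, adjusted p = 1.4e-04, higher in 28 of 39 pairs), *Cyp4a32* (0.13 ± 0.03, adjusted p = 0.0014, 28 of 39) and *Cyp4a12b* (0.098 ± 0.028, adjusted p = 0.0024, 29 of 39). Without the block these had adjusted p-values of 0.20, 0.50 and 0.25. The same 5 members were called without BXD70. *Cyp4a12a* did not pass in either fit (0.024, 95% interval -0.067 to 0.11 without the block, 21 of 39 pairs).

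The change differed widely between pairs of pools. For *Cyp4a14* it ran from -0.89 (BXD84) over a median of 0.62 to 3.87 (BXD70) on the log2 scale, and BXD65 came next with 3.64. For *Cyp4a10* it ran from -0.38 (BXD84) over 0.44 to 3.05 (BXD70), followed by BXD81 with 2.92, and for *Cyp4a31* from -0.75 (BXD73b) over 0.39 to 1.91 (BXD70). *Cyp4a14* rose by more than 1 log2 unit in 14 pairs, *Cyp4a10* in 8 and *Cyp4a31* in 8, and none of them fell by that much in any. All 3 were higher after SD in 25 of 39 pairs and all 3 lower in 5, namely BXD45, BXD51, BXD73b, BXD75 and the second DBA/2J pair. In the flatter members the extremes were smaller, from -0.47 (BXD95) to 0.55 (BXD70) for *Cyp4a32*, from -0.45 (D2B6F1) to 0.46 (BXD51) for *Cyp4a12b* and from -0.44 (D2B6F1) to 0.31 (the second DBA/2J pair) for *Cyp4a12a*. Each BXD line has 1 pair, so differences between lines in the change cannot be told apart from differences between pools of a line. Pairs of the same strain differed too. The change of *Cyp4a14* was 0.024 and 0.60 in C57BL/6J, and -0.16 and -0.63 in DBA/2J.

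**Figure D5:**
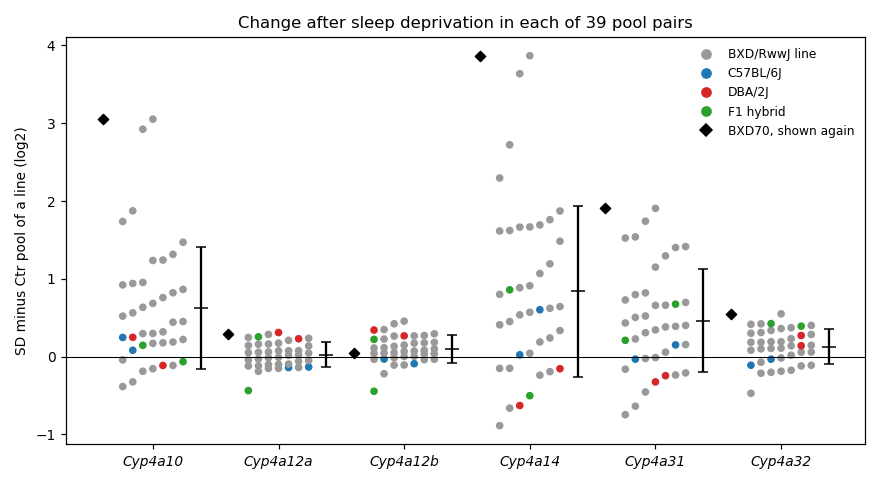
Change from the Ctr to the SD pool of a line (log2) for the 6 Cyp4a genes, 1 point per pair of pools (39 pairs), coloured as in the plot of levels, with black bars for the mean and standard deviation and a black diamond that shows BXD70 again. *Cyp4a14* has the widest range, from -0.89 to 3.87, and BXD70 the highest value of *Cyp4a10*, *Cyp4a14*, *Cyp4a31* and *Cyp4a32*.

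The members differed in how much they changed, by two-sided sign-flip permutation tests over 39 pairs of pools in all 15 pairs of genes, of which 13 passed the adjustment. *Cyp4a14* rose by 0.21 ± 0.09 (standard error) more than *Cyp4a10* (adjusted permutation p = 0.023), by 0.38 ± 0.11 more than *Cyp4a31* (0.0019) and by 0.71 ± 0.17 more than *Cyp4a32* (4.5e-04). *Cyp4a31* rose by 0.33 ± 0.10 more than *Cyp4a32* (adjusted permutation p = 0.0027), although both are trio members. *Cyp4a12b* rose by 0.074 ± 0.023 more than *Cyp4a12a* (adjusted permutation p = 0.0027), its near copy. The 2 pairs that did not pass were *Cyp4a10* with *Cyp4a31* (0.16 ± 0.08, adjusted permutation p = 0.061) and *Cyp4a12b* with *Cyp4a32* (-0.032 ± 0.043, adjusted permutation p = 0.47). *Cyp4a12a*, *Cyp4a12b* and *Cyp4a32*, the flatter members, had the highest mean read densities of the 6 in Ctr (0.47 to 0.67 reads per exonic base, against 0.026 to 0.29 in the other 3). In their highest Ctr pools, however, *Cyp4a14* and *Cyp4a10* reached 0.77 and 0.72 reads per exonic base, and *Cyp4a31* 0.094. The part of read density in the differences, and in the ranges and changes of any member, was not tested.

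Pairs of pools in which one inducible member rose most were those in which the others did. The changes of *Cyp4a10* and *Cyp4a14* correlated at r = 0.87 (rho = 0.89) over 33 lines, those of *Cyp4a14* and *Cyp4a31* at r = 0.84 (rho = 0.82) and those of *Cyp4a10* and *Cyp4a31* at r = 0.75 (rho = 0.75), each with an adjusted permutation p of 6.1e-05. Without the 2 lines farthest from the median r was 0.83, 0.79 and 0.70. The changes of *Cyp4a12a* and *Cyp4a32* correlated at r = 0.62 (rho = 0.58, adjusted permutation p = 8.2e-04), and at r = 0.62 without 2 lines. Those of *Cyp4a12a* and *Cyp4a12b* had r = 0.40 (adjusted permutation p = 0.065) and passed by rank (rho = 0.46, adjusted permutation p = 0.031) and, with centred libraries, by r (0.53, adjusted permutation p = 0.0068).

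A difference between the parental strains in the response to SD was called for 1 member, *Cyp4a12a* (DBA/2J minus C57BL/6J 0.41 ± 0.07 by limma's interaction term, adjusted p = 0.019), where 7.19% of all genes were called. Its reads hardly differed between conditions (1481 and 1496 in Ctr and 1514 and 1506 in SD pools of C57BL/6J, 1727 and 1807 against 1743 and 1744 in DBA/2J), while the SD libraries of DBA/2J were the smallest of the 8. *Alb* had the same interaction term (0.44 ± 0.07, adjusted p = 0.019). With library size as a covariate the term of *Cyp4a12a* was 0.11 (adjusted p = 0.91). That fit called 0 of 14107 genes, and library size moved with strain and condition in these 8 pools, so it decides nothing about this term. For *Cyp4a14*, which was higher after SD in both C57BL/6J pairs and lower in both DBA/2J pairs, the interaction was -0.71 with a 95% interval from -2.16 to 0.75 (adjusted p = 0.57).

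Partners of the members in the same route changed in both directions. Of 11 listed electron donors and dehydrogenases of omega-oxidation, 2 rose and 2 fell, with a median change of 0.0072. Of all genes 21.5% rose and 22.6% fell in this fit, with a median change of -0.0015, and the lists that follow are read against the same shares. *Por*, the reductase that feeds electrons to every microsomal P450, rose by 0.19 ± 0.04 (adjusted p = 1.8e-04), and *Adh4*, an alcohol dehydrogenase, fell by 0.13 ± 0.03 (adjusted p = 6.5e-04). By the same test, of 19 genes of peroxisomal dicarboxylate oxidation, 4 rose and 3 fell, with a median change of 0.018. *Pex11a*, a factor of peroxisome division, rose by 0.22 ± 0.04 (adjusted p = 1.2e-06), and *Abcd2*, a peroxisomal transporter of fatty acids, fell by 0.89 ± 0.36 (adjusted p = 0.036). All of these are limma values on the log2 scale over 39 against 39 pools.

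Among 28 other PPARalpha target genes, 11 rose and 1 fell, with a median change of 0.057 (all genes 21.5% higher, 22.6% lower and -0.0015). The largest changes were those of *Angptl4*, an inhibitor of lipoprotein lipase (0.98 ± 0.05, higher in 39 of 39 pairs), *Cidec*, a protein of lipid droplets (0.97 ± 0.19), *Acot1*, a cytosolic acyl-CoA thioesterase (0.95 ± 0.10, 39 of 39), and *Pdk4*, a kinase that blocks pyruvate oxidation, which fell by 0.95 ± 0.12. The highest adjusted p of these 4 was 1.7e-05. *Ppara* itself, named here after its value was seen, was at 8.78 log2 CPM in both conditions (change -0.0037 ± 0.0394, adjusted p = 0.95). Of 21 transcription factors linked to Cyp4a, 9 rose and 2 fell, with a median change of 0.079, against the same background. Among them were *Bcl6*, a repressor tied to growth hormone signalling, which rose by 0.46 ± 0.12 (adjusted p = 0.0016), and *Rxrb*, a partner of PPARalpha, which rose by 0.30 ± 0.03 (adjusted p = 2.6e-13).

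Outside subfamily Cyp4a, 2 of 10 listed CYP4 genes rose and 2 fell, with a median change of 0.013 and shares near those of all genes (21.5% and 22.6%). *Cyp4b1*, whose annotated end lies 3.10 kb beyond *Cyp4a32*, rose by 0.28 ± 0.06 (adjusted p = 1.6e-04, higher in 36 of 39 pairs), and *Cyp4f41-ps*, a pseudogene by its name, rose by 0.45 ± 0.18 (adjusted p = 0.039). *Cyp4f39* fell by 0.52 ± 0.15 (adjusted p = 0.0030) and *Cyp4f16* by 0.33 ± 0.11 (adjusted p = 0.011). Of 21 male-biased liver genes, a group to which the *Cyp4a12* pair belongs, 3 rose and 2 fell, with a median change of 0.031. The largest change was that of *Cyp2u1*, another fatty acid hydroxylase, which fell by 0.59 ± 0.07 (adjusted p = 1.9e-10). Of 15 female-biased genes 4 rose and 1 fell, with a median change of 0.12.

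The genes whose Ctr levels over the 33 lines were most like those of each member differed between the members. The correlations are given as a description, since they were picked as the highest of all genes, and for *Cyp4a32* they span its low and high sets. For *Cyp4a31* they span the gap between 3.22 and 4.01 log2 CPM. For *Cyp4a10* the gene with the highest r was *Rdh16*, a retinol dehydrogenase (0.67 in Ctr, 0.35 after SD), and *Ehhadh*, the peroxisomal bifunctional enzyme that shortens dicarboxylic acids, was among the first 5 (0.65 and 0.49). *Ehhadh* was also among the 5 for *Cyp4a14* (0.64 and 0.54), with *Acot3*, a peroxisomal acyl-CoA thioesterase (0.65 and 0.32). The levels of *Cyp4a12a* went with *Uqcr10* (0.85), *Ctsb* (0.83), *Psmd8* (0.83), *Ppa1* (0.82) and *Ybx1* (0.82), and those of *Cyp4a12b* with *Cyp2j6* (0.74) and the carboxylesterase gene *Ces2e* (0.73).

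For *Cyp4a31* and *Cyp4a32* most of the alike genes lay on the same chromosome. All 5 genes most like *Cyp4a31* and 4 of the 5 most like *Cyp4a32* are on chromosome 4, which holds 6.29% of the listed genes with a position, against 0 or 1 of 5 for each other member. *Hyi*, 2.74 Mb from the members, had r = 0.89 with *Cyp4a32* in Ctr and 0.90 after SD, and *Faah*, the fatty acid amide hydrolase, 346 kb away, 0.80 and 0.74. *St3gal3*, a sialyltransferase 2.31 Mb away, had r = 0.77 and 0.79 with *Cyp4a31*. Some neighbours ran against *Cyp4a32*, among them *Ccdc17* (r = -0.84 in Ctr) and *Atpaf1*, an assembly factor of the mitochondrial ATPase (r = -0.77). Lines that share a stretch of a chromosome share it at all its genes, so neighbouring genes are not independent of each other here.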

How the data were processed

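The members, gene lists and tests were chosen with earlier results of these data known. The authors sequenced stranded mRNA libraries of pooled liver RNA in single-end reads, aligned them to mm9 with STAR, counted them by strand with htseq-count, left out genes with few reads, normalised them with edgeR and deposited log2 CPM values. Undoing the logarithm and the prior count (about 1) gave whole reads within 0.02 for 100% of the values. These served for depth, read densities and voom. With the library sizes recovered alongside, they also gave every value in CPM and the library size used in correlations and as a covariate. The main fits were run on the deposited log2 CPM. Libraries were tested over all 14107 genes with limma 3.58.1 in R 4.3.3 (lmFit, eBayes with a variance trend), with Benjamini-Hochberg adjustment over all genes and a threshold of 0.05: SD against Ctr without a block, lines (33 lines, condition as covariate, F test), and parental strains (8 pools). Pools of a line from both conditions resembled each other (correlation of deviations at least 0.17, median 0.48, against -0.018 between lines), and a line is 1 inbred genotype, so the line was also used as a block. P-values measure the spread between pools. Correlations and differences between members were tested by permutation (100000 resamples, scipy 1.17.1 and numpy). Where the largest gap between levels exceeded 20% of the range with at least 6 lines on each side, correlations were computed within each side. Named genes were the members, up to 4 genes per list with the largest changes past the threshold, the 5 genes most correlated with each member, and neighbours on chromosome 4. Fits were tested on simulated data. Coding sequences and positions came from GENCODE M1 on mm9. Protein sequences and promoters were not used here. One gene that the naming rule selected is not reported here.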

Additional observations from a re-analysis of the deposited data

Results flagged for a closer look

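Among the 4 BXD/TyJ lines, which entered no comparison, *Cyp4a10* was higher after SD in 4 of 4 lines by a mean of 1.63 ± 0.76 (standard deviation) on the log2 scale, *Cyp4a14* in 4 of 4 by 1.74 ± 1.07, *Cyp4a31* in 4 of 4 by 0.72 ± 0.31 and *Cyp4a32* in 4 of 4 by 0.31 ± 0.19. They drew attention as a signal in libraries outside the comparisons, and were picked for being higher in all 4 lines. *Cyp4a12a* and *Cyp4a12b* were higher in 3 of 4 lines, by means of 0.049 and 0.068. How many of all genes were higher in 4 of 4 lines was not counted. BXD29 and BXD29t carry the same line number, so the 4 lines may not be independent. In single lines *Cyp4a14* measured 5.96 log2 CPM in Ctr and 7.56 after SD in BXD05, 2.90 and 3.19 in BXD29, 2.32 and 4.85 in BXD29t, and 2.94 and 5.48 in BXD32. These changes were not tested apart. With the 4 lines added, the fit over 43 pairs of pools gave 0.92 for *Cyp4a14* (limma, adjusted p = 0.011) and 0.72 for *Cyp4a10* (adjusted p = 0.016).

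In the same 4 lines the Ctr value of BXD05 lay far from the other 3 for *Cyp4a14* (its gap to the nearest line was 0.83 of the whole range) and for *Cyp4a32* (0.86 of the range, 184 CPM against 117 to 125 CPM). For independent values chance sets apart about 1 in 20 such groups, and 12 groups were looked at. BXD29 and BXD29t, and the 6 genes, may not be independent.

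The response of *Cyp4a12a* to SD differed between the parental strains by 0.41 on the log2 scale (limma's interaction term, DBA/2J minus C57BL/6J). In the 8 fits that left out 1 pool it was 0.37 to 0.44. It was past the threshold in 4 of them, and in the other 4 the calls over all genes were 7, 25, 49 and 8 of 14107, against 1014 with all pools. With library size as a covariate the term was 0.11, and 0 of 14107 genes were called.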

How the results depend on the processing

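The SD response was refitted over other sets of pools, scalings, weights and pairings, and the fits with library size as a covariate, the block without BXD70, and every alternative for the strain difference in the response were chosen after seeing the data. *Cyp4a14* kept its direction and its call in each fit of the SD response. *Cyp4a10* kept its direction, but lost its call without a variance trend (0.63, adjusted p = 0.053), without BXD79, BXD85 and BXD101 (0.57, 0.089) and with library size as a covariate (0.59, 0.058), which left 1 member called. Leaving out 1 line at a time gave 0.56 to 0.65 for *Cyp4a10* (adjusted p = 0.039 to 0.081) and 1 to 2 members called. With the line as a replicate block, with voom and the block, and with the block without BXD70, 5 members were called each time, with *Cyp4a12b* at 0.098, 0.095 and 0.099, *Cyp4a31* at 0.46, 0.33 and 0.42, and *Cyp4a32* at 0.13, 0.14 and 0.12.

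The line differences kept all 6 calls under each alternative run. Between the parental strains *Cyp4a12b* was the member whose direction or call changed, to -0.025 in the Ctr pools alone and in the interaction model, 0.34 in the SD pools alone (adjusted p = 0.014) and -0.0087 with library size as a covariate. For the strain difference in the SD response, 2 members were called with centred libraries (*Cyp4a12b* 0.44, 11.4% of all genes called) and with the sampling phase as a replicate block (*Cyp4a12b* 0.37, 6.56%). With library size as a covariate limma called 0 of 14107 genes, so its 0 of 6 members (0 at an unadjusted p under 0.05) is no result about them (*Cyp4a12a* 0.11, *Cyp4a12b* -0.088, *Cyp4a32* -0.38). Leaving out 1 pool gave 0 to 1 members called, *Cyp4a12a* 0.37 to 0.44, *Cyp4a10* -0.76 to 0.56 and *Cyp4a14* -1.53 to 0.12. Among the correlations, that of *Cyp4a14* and *Cyp4a32* in the high set after SD kept r = 0.50 without BXD48a, BXD65a and BXD73b and lost its call (adjusted permutation p = 0.061). Calls were gained by *Cyp4a12a* with *Cyp4a12b* (Ctr, SD and change r = 0.47, 0.46 and 0.53 with centred libraries, 0.53, 0.45 and 0.45 on linear CPM), *Cyp4a10* with *Cyp4a12b* after SD (0.42 in both) and, on linear CPM, *Cyp4a10* with *Cyp4a32* in the high set after SD (0.61). Among relations that passed in no fit, the sign turned for *Cyp4a12b* with *Cyp4a32* in the low set after SD (-0.15), the changes of *Cyp4a12a* with *Cyp4a31* (0.048) and *Cyp4a12b* with *Cyp4a14* (0.044) without those 3 lines, the changes of *Cyp4a12a* with *Cyp4a31* with centred libraries (0.027), and, on linear CPM, *Cyp4a12b* with *Cyp4a14* in Ctr (-0.054) and the changes of *Cyp4a12a* with *Cyp4a14* (-0.025). The cause of these shifts was not tested. Pooled RNA gives no spread between mice of a line, and 2 pools per strain and condition limit the strain comparison.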
